A study of Mus musculus with 7 samples.

Results

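Described here are 9 genes of the inflammatory CC chemokine system, taken by name from the UMI matrix of immune cells sorted from mouse glioma: the ligands Ccl2, Ccl7, Ccl8, Ccl12, Ccl3, Ccl4 and Ccl5 and the receptors Ccr2 and Ccr1. They are 9 of the 55491 gene rows of the matrix, and all 9 had UMIs. Their levels are given as CPM, that is, UMIs of the gene per 1000000 UMIs summed over the cells of 1 cell type in 1 mouse. The study asked what loss of the sialic acid receptor Siglec-E in microglia does to the immune cells of the tumour. CT-2A cells, a mouse glioma line, were injected into the brain at 8 to 12 weeks of age, and the tumour-bearing hemisphere was dissociated, frozen, thawed and sorted for live cells positive for CD45, CD11b or both. The KO group held 4 mice that carried Sall1CreERT2 together with Siglece fl/fl, and the WT group 3 mice that were Siglece fl/fl without the Cre. The labels give B6;129 as the strain of the Cre allele and B6.129P2 as that of the floxed one. Both groups received tamoxifen, 2.5 mg per injection from day 7 after tumour injection, daily until day 21 and then every other day. Sall1 is a gene of microglia among brain immune cells, so the driver limits the deletion mainly to that lineage, and the controls differ in carrying no Cre at all. Each mouse gave 1 library of 5-prime single-cell RNA sequencing.

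CC chemokines are small secreted proteins that bind G protein-coupled receptors and draw leukocytes along a gradient. Ccl2, Ccl7 and Ccl12 act on Ccr2, the receptor by which inflammatory monocytes leave the bone marrow and enter tissue, and in glioma this axis is known for bringing in the monocytes that become tumour macrophages. Ccl3, Ccl4 and Ccl5 are made by macrophages, activated T cells and NK cells, and Ccl3 and Ccl5 act on Ccr1, a receptor of myeloid cells.

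The 7 libraries held 28644 cells under 23 deposited cell type names, with 1410 to 5856 cells and a median of 4479 to 9554 UMIs per cell in each library. Of 28178 distinct barcodes, 460 occurred in more than 1 library, 3 to 56 in each pair of libraries, and 37 of them carried the same cell type name. The targeted gene Siglece had 2, 1, 0 and 0 UMIs in the microglia of KO replicates 1 to 4 and 20, 19 and 7 in those of WT replicates 1 to 3. Per 1000000 UMIs this was 10.7, 19.6, 0 and 0 in KO and 36.1, 45.9 and 18.6 in WT mice, so KO replicate 2, with a single UMI, overlapped WT replicate 3. The names were joined into 9 classes and checked against marker lists. All 8 NK cell, 7 B cell and 7 plasmacytoid dendritic cell markers peaked in their own class, as did 7 of 8 microglial, 7 of 9 conventional dendritic cell, 6 of 8 tumour or stromal, 6 of 10 T cell, 5 of 12 monocyte-derived and 4 of 6 mo-DC (monocyte-derived dendritic cell) markers. Of lists with no class of their own, 5 of 8 border-associated macrophage markers peaked in monocyte-derived cells and 4 of 8 neutrophil markers in mo-DCs. The cells named cDC2 went against their label: they had 3859 CPM of Ccr7 and 5134 of Fscn1, genes of mature migratory dendritic cells, and 0.097 of Cd209a, a gene of type 2 dendritic cells. They are called "cells named cDC2" below.

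The members lie in 3 gene clusters on build GRCm38 with GENCODE M21 coordinates. Ccl2, Ccl7, Ccl12 and Ccl8 occupy chr11:82035571-82116799 in that order, a span of 81229 bp. Ccl5, Ccl3 and Ccl4 occupy chr11:83525778-83664683, a span of 138906 bp. The receptor genes Ccr1 and Ccr2 lie at chr9:123962124-124113557 within 151434 bp. Promoter sequences were matched for 5 of the 9 members (Ccl8, Ccl12, Ccr2, Ccl3 and Ccr1), from RefSeq on GRCm38.p6. The 250 bases before the start site are shown for the neighbours Ccl12 and Ccl8 and for Ccl3, whose levels by cell type differed as described below. Capitals mark the motif TATAAA, which is not in the Ccl3 window, and each sequence reads 5′ to 3′ on the strand of its gene. The Ccl3 window stops at base 83649379, before the RefSeq start, whereas the GENCODE start of Ccl3 is at 83649355. The bases between these starts were not searched, so the lack of TATAAA holds for the window only.
Ccl12 (chr11:82101595-82101844, plus strand): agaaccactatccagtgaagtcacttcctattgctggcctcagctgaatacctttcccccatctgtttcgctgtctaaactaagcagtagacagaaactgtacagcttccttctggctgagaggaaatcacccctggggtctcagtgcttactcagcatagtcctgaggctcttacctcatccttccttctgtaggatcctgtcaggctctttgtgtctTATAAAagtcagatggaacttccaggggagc
Ccl8 (chr11:82114935-82115184, plus strand): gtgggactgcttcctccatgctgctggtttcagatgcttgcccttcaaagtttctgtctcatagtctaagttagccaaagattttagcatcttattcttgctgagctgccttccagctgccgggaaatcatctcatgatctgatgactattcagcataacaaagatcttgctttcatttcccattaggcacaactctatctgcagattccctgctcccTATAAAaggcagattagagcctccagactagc
Ccl3 (chr11:83649379-83649628, minus strand): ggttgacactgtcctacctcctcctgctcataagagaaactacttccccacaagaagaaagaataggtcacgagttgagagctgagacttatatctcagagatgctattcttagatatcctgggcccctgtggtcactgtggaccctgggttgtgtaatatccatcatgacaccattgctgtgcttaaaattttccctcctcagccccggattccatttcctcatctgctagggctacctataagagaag
TATAAA ended 26 bases before the start site in Ccl12 and 27 bases before it in Ccl8, and 12.4% of 32851 promoters of this length hold it on either strand. The Ccl12 and Ccl8 promoters were identical in 57.5% of aligned columns, against 54.2% for Ccl8 and Ccl3 and 48.4% for Ccl12 and Ccl3. The NF-kB-like pattern, GGG and CC separated by 5 bases and held by 45.8% of promoters, matched only in Ccr1, 65 to 74 bases before its start site. Neither the interferon-response-like pattern, a pair of GAAA separated by 2 bases (2.98% of promoters), nor the AP-1-like TGANTCA (6.75%) matched in any of the 5. The patterns were searched on both strands, and a match is a match of letters only.

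How the deposited cell types were named is not given. The names may rest on the same expression values, so levels across types are descriptions without a test. A type is said to lie above another where the ranges over mice with at least 20 cells of the type do not overlap. The 4 genes of the first cluster were highest in microglia and macrophages, and Ccl2, Ccl7 and Ccl12 ranked 5 or 6 of the 23 types in monocytes, where Ccl8 was 4.87 CPM.

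**Figure D1:**
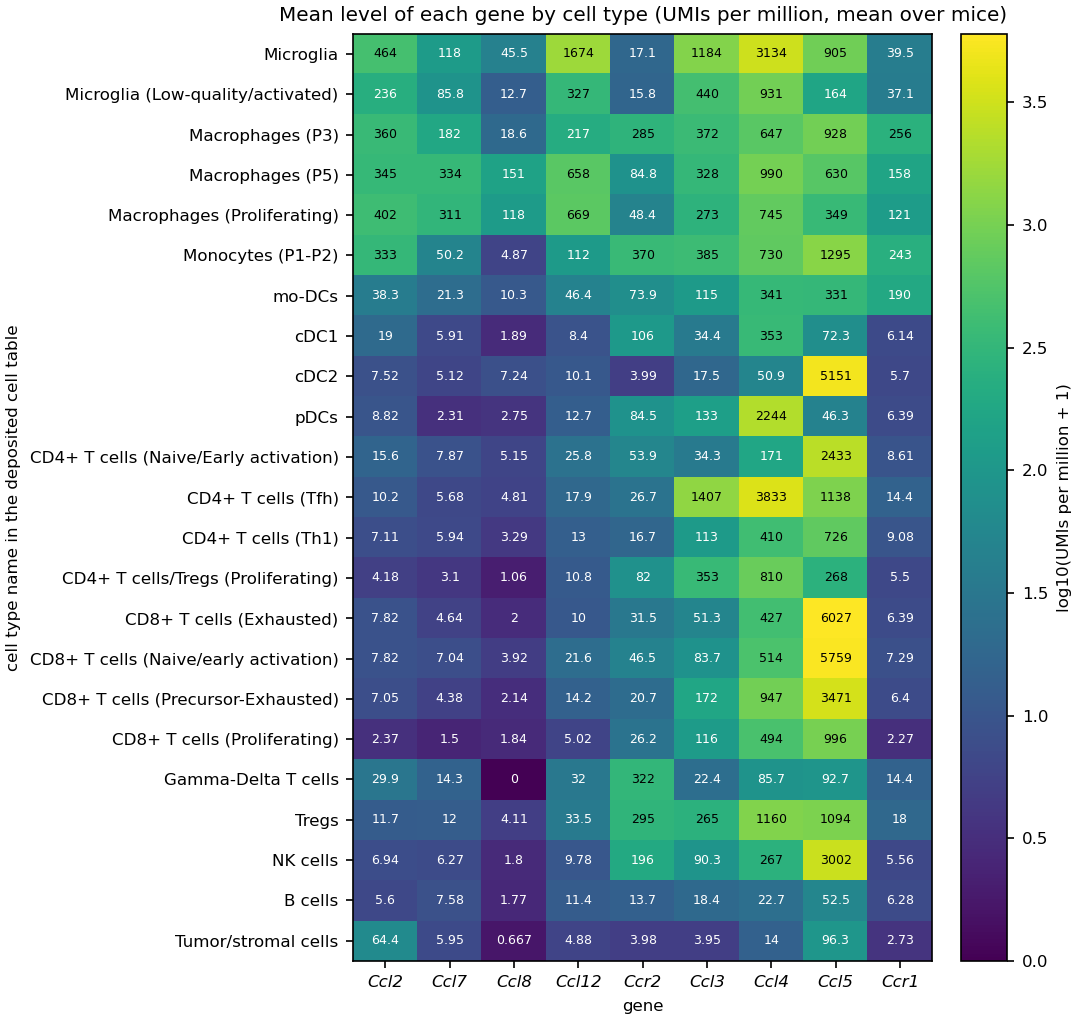
Mean level of the 9 genes (columns) in the 23 deposited cell types (rows), in CPM, averaged over the mice with at least 20 cells of the type and coloured on a log10 scale. Ccl2, Ccl7, Ccl8 and Ccl12 share the microglial and macrophage rows, whereas Ccl5 peaks at 6027 in exhausted CD8+ T cells and Ccl4 at 3833 in Tfh cells. The Tfh mean of Ccl4 includes KO replicate 1 at 9715, and Microglia (WT mice only) came next at 3134.

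Ccl12, a mouse ligand of Ccr2, stood at 1200, 1597 and 2225 CPM in cells named Microglia of WT replicates 1 to 3. These 3 values lay above every mouse value of the other 22 types. The KO mice had 10, 7, 0 and 15 such cells, fewer than 20 in each, so no KO level is given for that name. Over both genotypes, proliferating macrophages (669 ± 393, SD, n = 6 mice) and P5 macrophages (658 ± 370, n = 7) came next in Ccl12 and overlapped. Their highest values, 1195 and 1164, were of WT mice and close to the lowest Microglia value of 1200. These means include KO mice, whereas the Microglia values are of WT mice only. P3 macrophages (217 ± 127, n = 7) and monocytes (112 ± 51.4, n = 7) stood lower, and mo-DCs lower again at 46.4 ± 27.0 (n = 7).

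Ccl7, another Ccr2 ligand, was highest in P5 macrophages (334 ± 156, n = 7) and proliferating macrophages (311 ± 179, n = 6). Its P5 range, 103 to 536, lay above all values of 18 types but overlapped those of the other macrophages and of microglia. Monocytes had 50.2 ± 29.9 (n = 7). Unlike Ccl12, Ccl7 was not highest in microglia: the 3 WT mice had 100, 70.7 and 182 there, all below the WT values of 435, 449 and 536 in P5 macrophages.

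Ccl2, the main monocyte attractant, was spread evenly over the same cells. In the 3 WT mice, the only ones with enough cells named Microglia, its means were 464 ± 273 in Microglia, 547 ± 72.8 in proliferating macrophages and 444 ± 94.3 in P5 macrophages, and these overlapped. Over both genotypes monocytes had 333 ± 120 (n = 7) and proliferating macrophages 402 ± 180 (n = 6), also overlapping. Outside the myeloid cells only tumour or stromal cells came near, with 64.4 ± 36.3 (n = 5), a range that lay above those of 13 types.

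Ccl8, which in the mouse signals through Ccr8, was highest in P5 macrophages and varied widely between mice. P5 macrophages of KO replicates 1 to 4 had 77.5, 78.9, 158 and 278 CPM, and those of WT replicates 1 to 3 had 10.5, 366 and 91.8. The WT mice thus held both the lowest and the highest value, and the KO values lay between them. The same WT replicate 2 was high in proliferating macrophages (339, against 0.547 and 52.9 in WT replicates 1 and 3) and in P3 macrophages (57.9, against 0 and 6.79).

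The receptor Ccr2, which marks incoming monocytes, was highest in monocytes at 370 ± 87.8 (n = 7), a range above those of 19 types. It stood at 322 ± 111 in gamma-delta T cells (n = 4), 295 ± 102 in Tregs (n = 6) and 196 ± 49.2 in NK cells (n = 7). Among macrophages Ccr2 was 285 ± 101 in P3 and 84.8 ± 45.8 in P5 (n = 7 each), the reverse of the order of Ccl7 and Ccl12. In P3 macrophages KO replicates 1 to 4 had 197, 351, 465 and 209 and WT replicates 1 to 3 had 323, 264 and 189. P5 values were 42.4, 99.8, 176 and 83.8 in the KO mice and 79.5, 40.9 and 71.0 in the WT mice, so each of the 7 mice had more Ccr2 in P3 than in P5. Cells named cDC2 had 3.99 of Ccr2, near the 3.98 of tumour or stromal cells, whereas cDC1 had 106 ± 40.6 (n = 7). Of the Ccr2 UMIs, 1.96% were in 133 values that are not whole numbers; the other 8 members had none.

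Ccr1, a receptor of Ccl3, Ccl5 and Ccl7, was steadier between mice. P3 macrophages had 256 ± 31.3, monocytes 243 ± 43.7, mo-DCs 190 ± 31.6 and P5 macrophages 158 ± 37.0 (n = 7 each), and neighbours in this order overlapped. In mo-DCs Ccr1 overlapped its monocyte values, whereas Ccr2 (73.9 ± 48.7 against 370 ± 87.8, n = 7) did not. Microglia had 39.5 ± 14.4 (n = 3), and the T, NK, B and dendritic cell types other than mo-DCs had means of at most 18.

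Ccl5 followed a different pattern, that of cytotoxic lymphocytes and mature dendritic cells. CD8+ T cells had 6027 ± 2542 when named exhausted (n = 6) and 5759 ± 1616 when named naive or early activated (n = 7). Cells named cDC2 had 6267, 6313, 4478 and 4453 in KO replicates 1 to 4 and 6234, 5622 and 2687 in WT replicates 1 to 3, with both genotypes overlapping. All these values lay above those of cDC1, where the mean was 72.3, and plasmacytoid dendritic cells had 46.3. NK cells had 3002 ± 1714 (n = 7). Monocytes had 1295 ± 664 (n = 7) with a wide range, 192 to 2322.

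Ccl3 and Ccl4, encoded in the same cluster as Ccl5, were highest in T cells named Tfh (T follicular helper) and in microglia. Ccl4 in Tfh cells was 9715, 2488, 3260 and 1105 in KO replicates 1 to 4 and 2944 and 3484 in WT replicates 2 and 3. KO replicate 1 stood far above the others, and the remaining KO values lay around or below the WT values. Ccl3 in the same cells was 4120, 743, 1040 and 337 in the KO mice and 1192 and 1012 in the WT mice, with the same mouse on top. Microglia of the 3 WT mice had 2156, 3287 and 3958 of Ccl4 and 891, 1253 and 1409 of Ccl3. The 2 genes parted in plasmacytoid dendritic cells, where Ccl4 was 2244 ± 1294 (n = 7), rank 3 among the 23 types, and Ccl3 133 ± 89.2, rank 11. In Tregs Ccl4 was 1160 ± 615 (n = 6), rank 4, and Ccl3 265 ± 139, rank 9.

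Shares of cells with a UMI were compared after each cell was thinned to 1500 UMIs, which left out 0 to 37 cells of each type named here. Of Microglia, 60.5% ± 3.81 had a Ccl12 UMI, 59.2% ± 6.30 a Ccl4 UMI and 41.4% ± 4.90 a Ccl3 UMI (SD, n = 3 WT mice). Without thinning, at a median of 6226 UMIs, these were 84.3%, 73.9% and 62.8%. Proliferating macrophages had 36.8% ± 12.9 with Ccl2 and 21.4% ± 9.74 with Ccl7 (n = 6; 67.4% and 48.0% unthinned at a median of 10050 UMIs). P5 macrophages had 10.0% ± 7.61 with Ccl8 (n = 7; 20.9% unthinned at a median of 6437 UMIs). Monocytes had 39.0% ± 8.08 with Ccr2 and 28.8% ± 6.13 with Ccr1 (n = 7; 69.7% and 63.2% unthinned at 5730 UMIs). Cells named cDC2 had 85.0% ± 7.41 with Ccl5 (n = 7; 95.8% unthinned at 6439 UMIs).
As a background for free RNA, cells taken to lack each gene were counted, also thinned. Whether those cells make the gene themselves was not tested. In B cells, median 7302 UMIs, 0.771% had a Ccl2 UMI, 2.35% Ccl7, 0.311% Ccl8 and 3.01% Ccl12 (means over 6 mice). In tumour or stromal cells, median 20569 UMIs, 0.876% had Ccl3, 2.79% Ccl4, 9.35% Ccl5, 0.194% Ccr2 and 1.09% Ccr1 (means over 5 mice). The Ccl12 share in mo-DCs was 2.76%, not above that of B cells, although its level was 46.4 CPM against 11.4 in B cells. This B cell background varied widely between mice, with levels from 0 to 50.4 CPM (SD 19.3, n = 6). The comparison therefore does not place mo-DCs at background. For Ccl5 the share in cDC1 was 5.88%, below that of tumour or stromal cells.

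Within a type, some pairs of these chemokines tended to occur in the same cells. In P5 macrophages 44.2% of Ccl7-positive cells had a Ccl2 UMI against 18.9% of Ccl7-negative cells, higher in 7 of 7 mice. Ccl12-positive P5 cells also more often had Ccl7 (33.8% against 14.3%, 7 of 7 mice). Ccl3 and Ccl4 went together in every type counted: 81.4% against 19.8% in Tfh cells (6 of 6 mice), 69.2% against 35.1% in precursor-exhausted CD8+ T cells (6 of 6) and 60.8% against 31.5% in P5 macrophages (7 of 7). Ccl5 and Ccl12 did not: 28.0% of Ccl5-positive and 32.7% of Ccl5-negative P5 cells had Ccl12, higher in the positive cells of only 1 of 7 mice. Nor did Ccl5 and Ccl2 in P3 macrophages (18.9% against 25.8%, 2 of 7 mice). In P5 macrophages the shares were close for Ccl4 by Ccl5 (40.1% against 38.7%, 4 of 7 mice) and for Ccl12 by Ccl8 (31.3% against 28.2%, 4 of 5). In T cells, Ccl5-positive cells more often had Ccl4. The shares were 41.9% against 27.6% in Tfh cells (6 of 6 mice) and 41.7% against 23.2% in precursor-exhausted CD8+ T cells (7 of 7). These shares are over thinned cells and means of mice with at least 10 positive cells.

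Across the 23 cell types, the likeness of each pattern to other genes was measured as Pearson's r of log2(mean CPM + 1) over 10996 genes with at least 20 CPM in some type. These types share libraries and depth, and r is a description. Ccl12 was most like the complement genes C1qa, C1qc and C1qb (r = 0.99, 0.99 and 0.98). Ccl7 was most like Ms4a7, Apoe and C1qc (0.96 each), Ccl2 like Hmox1, Lrp1 and Itgb5 (0.96 to 0.95), and Ccl8 like Ch25h, Lilra5 and Cxcl14 (0.95 to 0.90). Ccr1 was most like Clec4n, Mmp12 and Sirpb1b (0.97 to 0.96). Ccl3 and Ccl4 were each other's nearest gene at r = 0.91, followed by Naa60 and Slc37a2 for Ccl3 and by Fyb and Itgb2 for Ccl4. No gene came as near to Ccr2 (Bambi 0.80, Ly6e 0.75, Nr4a1 0.74) or to Ccl5 (Ndnf 0.77, AW112010 0.76, Abcb1a 0.74). Between members, Ccl7 and Ccl12 reached 0.95 and Ccl2 and Ccl7 0.93, whereas Ccl5 had r between -0.16 and 0.20 with each of the other 8.

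The classes that supplied each transcript were then compared between genotypes. Monocyte-derived cells held most of the UMIs of Ccl2, Ccl7, Ccl8 and Ccl12 in every mouse. Their share of the Ccl12 UMIs was 78.4%, 80.9%, 86.0% and 77.7% in KO replicates 1 to 4 and 92.6%, 88.5% and 85.6% in WT replicates 1 to 3. Microglia, although highest in Ccl12 per UMI, supplied only 0.31% to 11.3% of it in any mouse.
Ccl5 came mainly from T cells in the KO mice, with 68.9%, 61.0%, 91.5% and 76.8%, and less so in the WT mice, with 19.3%, 38.2% and 53.7%. The lowest KO share was above the highest WT share, as it was for 62.7% of 16717 genes. The T cell share of Ccl4 was 62.9% ± 17.1 in KO (n = 4) and 22.2% ± 16.5 in WT mice (n = 3), again without overlap. Monocyte-derived cells held 30.2% ± 14.0 of Ccl3 in KO and 65.4% ± 13.3 in WT mice, 39.1% ± 3.20 and 59.1% ± 10.3 of Ccr2, and 63.1% ± 6.09 and 80.4% ± 6.86 of Ccr1. By a two-sided exact permutation test over mice, none of the 9 shares passed. The exact p was 0.0571 for Ccl7, Ccr2, Ccl3, Ccl4, Ccl5 and Ccr1 (adjusted over the 9 genes, 0.0857) and 0.114 to 0.229 for Ccl12, Ccl2 and Ccl8. The T cell shares of Ccl4 and Ccl5 and the monocyte-derived shares of Ccl7, Ccr2, Ccl3 and Ccr1 did not overlap between genotypes. How many of all genes had monocyte-derived shares without overlap was not counted. The 0.0571 of these genes is the smallest two-sided p that the exact permutation test can give with 4 against 3 mice. No share could therefore have passed, and the test cannot decide whether the shares differ between genotypes. With every class given the same number of UMIs, the KO minus WT difference changed sign for Ccl7, Ccl8, Ccl12, Ccr2 and Ccl3. No minimum number of cells was set there. KO replicate 3 entered with 13 microglia and 1 tumour or stromal cell. KO replicate 1 entered with 8 B cells and 17 tumour or stromal cells. Such small groups weighed as much as large ones, and their part in the sign changes was not tested. The makeup of the sort moved with the observed shares. T cells were 58.6% ± 15.9 of cells in KO and 25.4% ± 12.9 in WT mice. Monocyte-derived cells were 17.0% ± 6.29 and 43.3% ± 10.5.

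**Figure D2:**
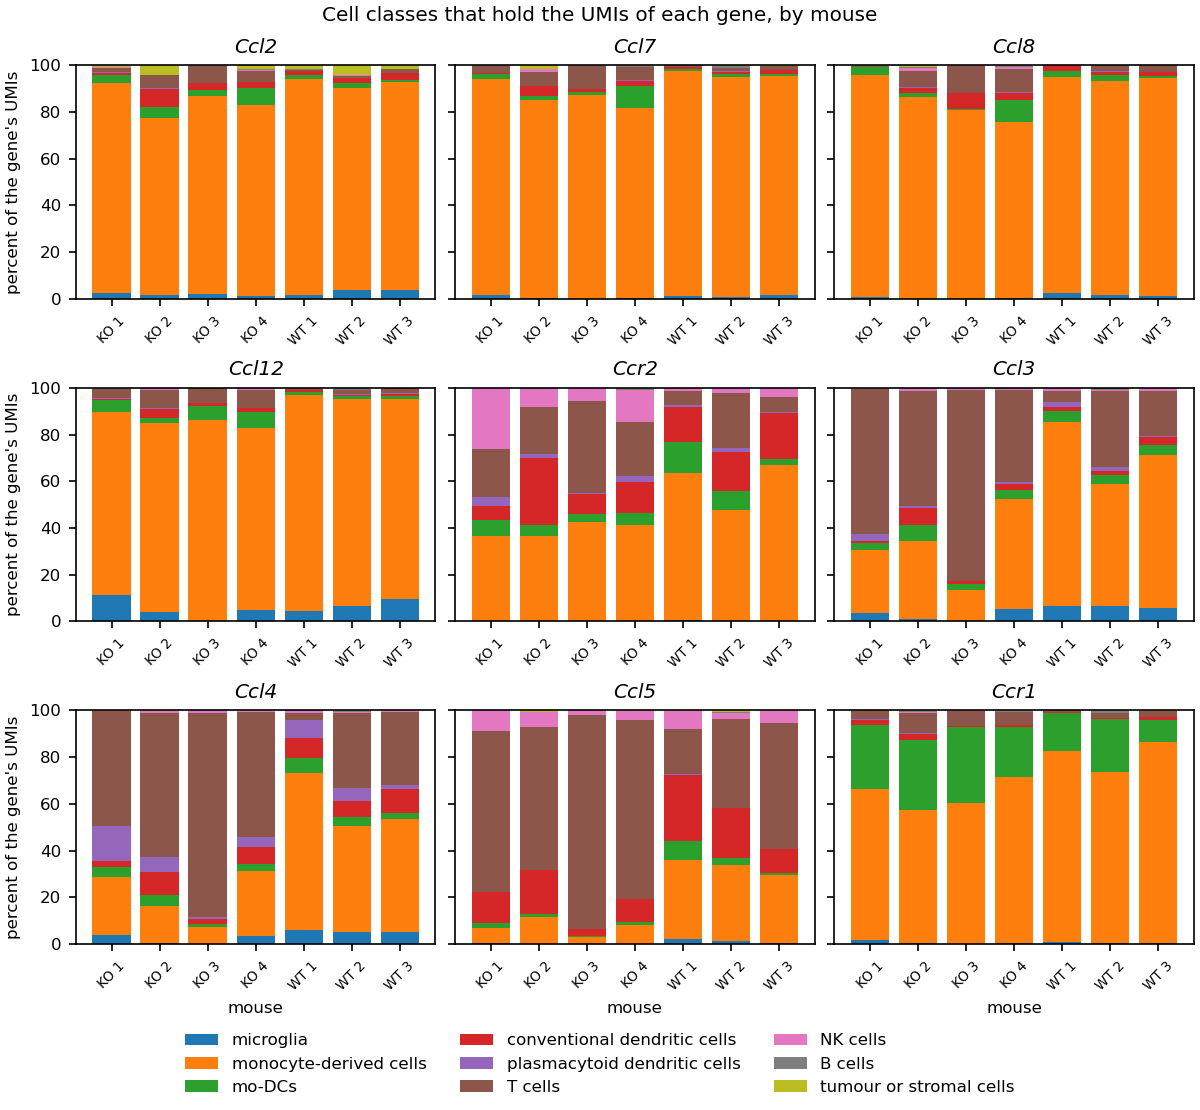
Percent of the UMIs of each gene (one panel each) found in the 9 cell classes (colours), for each of the 7 mice on the x axis. The T cell part of Ccl4 and Ccl5 is larger in each of the 4 KO mice than in any of the 3 WT mice, and monocyte-derived cells hold most of Ccl2, Ccl7, Ccl8 and Ccl12 in all 7.

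Levels within each class were compared between genotypes in edgeR on UMIs summed per mouse, with 56 tests of the members over 9 classes. edgeR called 0 of the 56, a call being a p under 0.05 once adjusted across the whole table by Benjamini and Hochberg. At an unadjusted p under 0.05 there were 8, and DESeq2 also called 0 of 56. Counts at an unadjusted p, here and below, stand without the share of all genes unless it is given. They are not read as results about the members. Few genes of any kind were called: 0.0415% of 4820 genes tested in microglia, 0.045% in plasmacytoid dendritic cells, 0.0141% in NK cells, 0.0288% in tumour or stromal cells and 0% in the other 5 classes. The fits of 21 single cell types gave 123 tests of the members, of which edgeR called 0 (20 at an unadjusted p under 0.05; DESeq2 called 0, with 25). In 10 of these fits 0% of all genes were called. The others had 0.213% in low-quality or activated microglia, 0.0188% in P5 macrophages, 0.045% in pDCs, 0.0141% in NK cells and 0.0288% in tumour or stromal cells. Among T cell types the share was 0.0114% in Tfh, 0.0326% in Th1, 0.0494% in proliferating CD4+ T cells or Tregs, 0.0135% in exhausted and 0.0241% in naive or early activated CD8+ T cells, and 0.0411% in Tregs.

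In monocyte-derived cells Ccl12 was 402, 117, 151 and 442 CPM in KO replicates 1 to 4 and 797, 711 and 490 in WT replicates 1 to 3. All 4 KO values were below the 3 WT values, with KO replicates 2 and 3 the lowest. The log2 fold change of Ccl12, KO over WT, was -1.22 (SE 0.47), with an edgeR adjusted p of 0.830. Ccl7 was 255, 112, 62.1 and 290 in KO and 312, 307 and 339 in WT mice, also without overlap and with the same 2 KO mice lowest (log2 fold change -0.80, SE 0.47, edgeR adjusted p 0.908). These 2 of 9 members compare with 3.47% of all genes tested that had every KO mouse below every WT mouse in this class. Ccl2 was 418, 190, 151 and 407 in KO and 424, 342 and 521 in WT mice; KO replicates 1 and 4 lay within the WT range (log2 fold change -0.54, SE 0.39). Ccl8 had a log2 fold change of -0.24 with an SE of 1.12, and 1.70 without WT replicate 2, the mouse with the most Ccl8. Ccr2 had 0.42 (SE 0.33), and Ccr1, Ccl4, Ccl5 and Ccl3 lay between -0.24 and -0.13. The median over the 9 members was -0.24, against 0.00 over all 11943 genes. The dissociation stress genes, 12 immediate early and heat shock genes, had a median of 0.07 in this class with 0 called, and their summed level ran from 10772 to 21494 in KO and from 14727 to 21124 in WT mice.

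**Figure D3:**
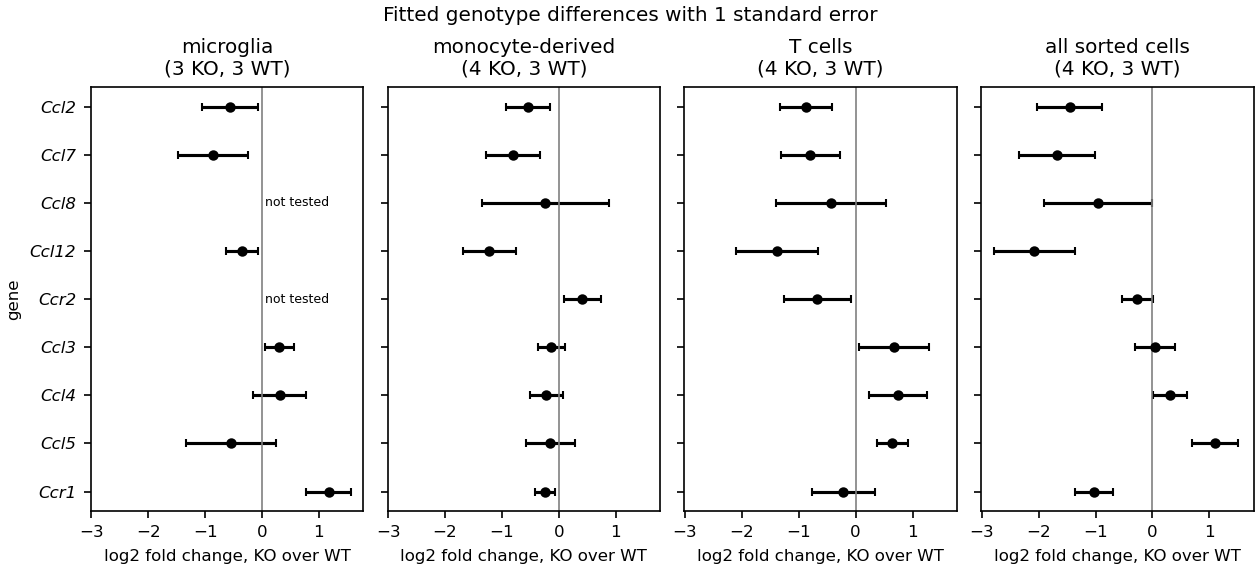
Fitted log2 fold change of each gene, KO over WT (x axis), with bars of 1 standard error, in microglia, monocyte-derived cells, T cells and all sorted cells; Ccl8 and Ccr2 did not pass the filter in microglia. In monocyte-derived cells 8 of the 9 genes lie left of 0, with Ccl12 farthest at -1.22, and no gene in any panel passed the adjusted threshold.

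The UMIs of the single cell types of this class add up to the class values above, so their Ccl12 is a breakdown of the same data. In P5 macrophages, Ccl12 was 555, 190, 205 and 707 in KO and 1164, 986 and 803 in WT mice. P3 macrophages gave 158, 29.1, 114 and 216 in KO and 398, 327 and 274 in WT mice, and monocytes 52.0, 58.0, 84.3 and 114 against 126, 188 and 163. In each of these 3 types the highest KO value was under the lowest WT value, as 4.51%, 3.36% and 3.12% of the genes tested did. In proliferating macrophages 1 of the 3 KO mice (793) overlapped the WT values of 1195, 957 and 608. Ccl12 had log2 fold changes of -1.20 (SE 0.49) in P5, -1.35 (SE 0.57) in P3 and -1.01 (SE 0.26) in monocytes, and the lowest edgeR adjusted p of the 3 was 0.533, in monocytes. Outside this class, its log2 fold change was above 0 in Tregs (0.25, SE 1.49) and in low-quality or activated microglia (0.12, SE 0.35). It was -0.04 (SE 0.83) in mo-DCs and lower than that in the other single types where Ccl12 was fitted.
Ccl7 in P5 macrophages was 314, 168, 103 and 335 in KO and 435, 449 and 536 in WT mice, without overlap (log2 fold change -1.0, SE 0.39, edgeR adjusted p 0.705). In P3 macrophages it overlapped, with KO values of 243, 63.6, 17.7 and 357 around the WT values of 252, 120 and 220. Proliferating macrophages had 3 members without overlap, where 5.4% of genes tested lay lower in each KO mouse than in any WT mouse. Ccl2 was 381, 183 and 204 there in KO replicates 1, 2 and 4 and 590, 463 and 588 in the WT mice (log2 fold change -1.04, SE 0.26, edgeR adjusted p 0.954). Ccl4 and Ccl3 had log2 fold changes of -0.98 and -0.62 in the same cells. Without KO replicate 4, whose Ccl7 was 543 against 138 and 66.0 in KO replicates 1 and 2, the fit of proliferating macrophages called 1 member, Ccl7 (log2 fold change -1.77, edgeR adjusted p 0.0448), against 0 with it; 0.0773% of all genes were called in that fit.

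**Figure D4:**
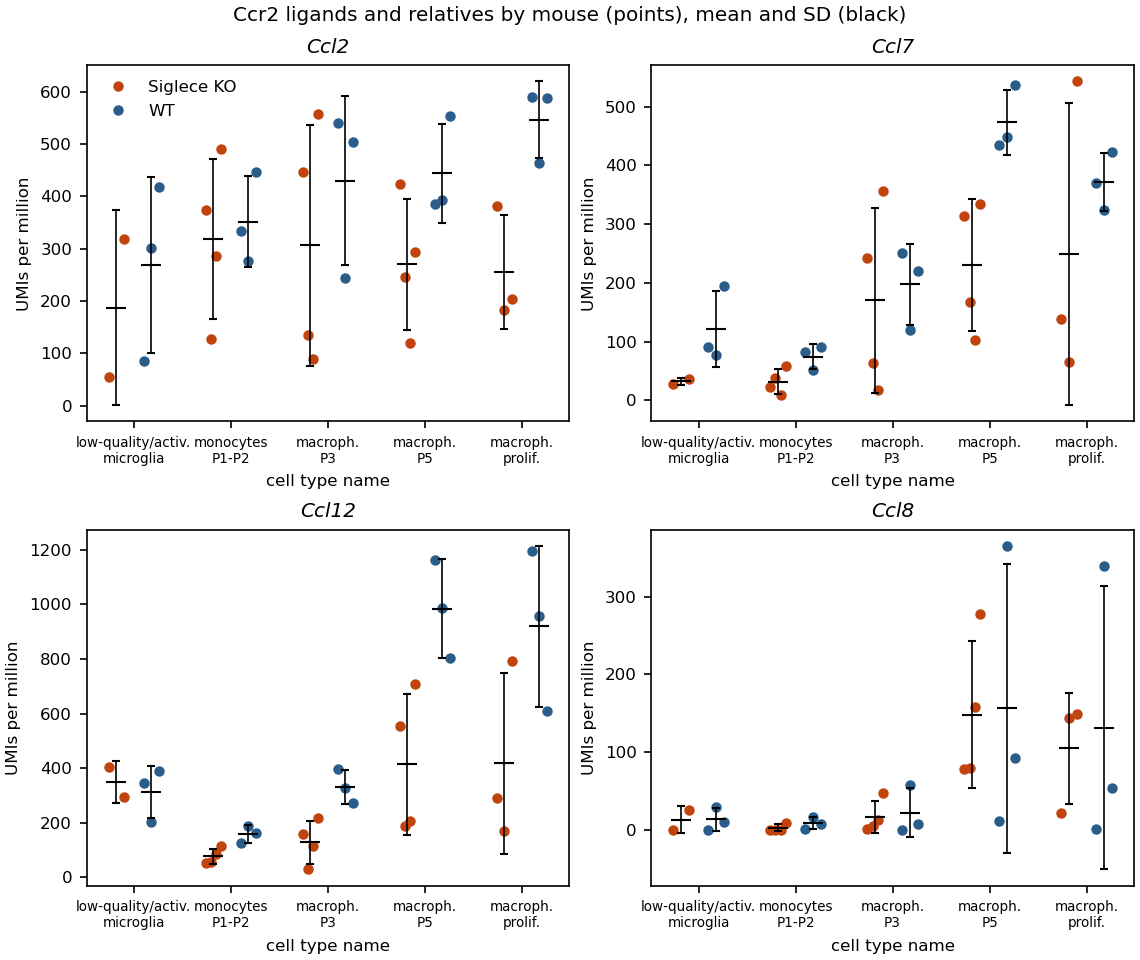
Ccl2, Ccl7, Ccl12 and Ccl8 in CPM (y axis, linear) in 5 myeloid cell types, 1 point per mouse with at least 20 cells (KO orange, WT blue), with the mean as a black dash and the SD as a bar. The 4 KO points lie below the 3 WT points for Ccl12 in monocytes, P3 and P5 macrophages and for Ccl7 in P5 macrophages, while Ccl8 spreads most within the WT group.

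In microglia, the cells in which the driver acts, 3 KO and 3 WT mice had at least 20 cells. This class joins cells named Microglia with cells named low-quality or activated. The latter were 20 of 30, 14 of 21 and 34 of 49 cells in KO replicates 1, 2 and 4, and 170 of 301 WT cells. Their median over all mice was 2222 UMIs, against 6226 in cells named Microglia. Their Ccl12 was 327 CPM (n = 5 mice), against 1674 in cells named Microglia (n = 3 WT mice). The part of this makeup in the values below was not tested on its own. A fit without the low-quality or activated cells, given below, also lowered the minimum number of cells. Ccr1 was 96.5, 117 and 50 in KO replicates 1, 2 and 4 and 43.3, 36.2 and 23.9 in the WT mice, from few UMIs. All KO values were above all WT values, as were those of 8.9% of genes tested, and the log2 fold change of Ccr1 was 1.17 (SE 0.39, edgeR adjusted p 0.208). No member had every KO value below every WT value in microglia, where 9.75% of genes tested did. Ccl12 was 1452, 666 and 889 in KO and 913, 1251 and 1726 in WT mice, overlapping (log2 fold change -0.36, SE 0.29). Ccl3 and Ccl4 had log2 fold changes of 0.30 (SE 0.26) and 0.31 (SE 0.47), Ccl2 -0.56 (SE 0.50), Ccl7 -0.86 (SE 0.62) and Ccl5 -0.55 (SE 0.79), and all of these overlapped between genotypes. Leaving out 1 mouse gave -2.13 (without KO replicate 1) to -0.30 (without KO replicate 4) for Ccl7, -0.94 to -0.0065 for Ccl2 and -0.98 to -0.17 for Ccl5. The direction of Ccl12, Ccl2, Ccl3, Ccl4 and Ccl5 turned when each mouse was reduced to an equal number of microglia. Ccl12 and Ccl5 also turned in a fit without the low-quality or activated cells, at a minimum of 10 cells. The stress genes had a median log2 fold change of 0.29 in microglia, 0 of 12 called, with summed levels of 25017 to 27408 in KO and 19283 to 26169 in WT mice; their part in these values was not tested.

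A model with both classes tested whether the genotype difference was unequal in microglia and in monocyte-derived cells, in the 3 KO and 3 WT mice that had both. Of 12570 genes 52 were called in edgeR (0.414%). None of the 7 members that had passed the filter in microglia was among them. At an unadjusted p under 0.05 in this edgeR fit were 2 of the 7, and 1238 of all 12570 genes. Limma voom called no gene. Ccl8 and Ccr2, which had not passed the filter in microglia, are not given. Ccr1 differed by 1.27 on the log2 scale (SE 0.39, edgeR adjusted p 0.123), with the higher value in microglia, by 1.70 without KO replicate 4 (edgeR adjusted p 0.0240, in a fit that called 0.943% of all genes) and by 0.81 without KO replicate 1 (edgeR adjusted p 0.725). The difference for Ccl12 was 0.59 (SE 0.27, edgeR adjusted p 0.417).

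Outside the myeloid lineage the receptors and lymphoid chemokines varied without a call. Ccr2 in NK cells was 251, 206, 262 and 202 in KO and 133, 174 and 145 in WT mice, without overlap, as for 3.49% of genes tested (log2 fold change 0.59, SE 0.19, edgeR adjusted p 1.000). Ccr2 in pooled T cells had a log2 fold change of -0.67 (SE 0.59), whereas 7 of the 9 T cell types fitted singly had values above 0, from 0.05 in Tregs to 1.45 in Th1 cells. Fits of Tfh, Th1, proliferating CD4+, proliferating CD8+, exhausted CD8+ cells and Tregs lacked WT replicate 1, here and for Ccl5 below. Ccr2 was also lower in the KO mean of mo-DCs (log2 fold change -1.0, SE 0.43, edgeR adjusted p 0.663), where the KO mice had 43.9 to 60.2 and the WT mice 41.5 to 180, and without WT replicate 1 it had -0.33. In plasmacytoid dendritic cells Ccr2 was 71.1, 117, 104 and 103 in KO and 63.8, 70.2 and 63.0 in WT mice, as for 3.6% of genes tested (log2 fold change 0.56, SE 0.22, edgeR adjusted p 0.714). In T cells Ccl5 was 3021, 2107, 5129 and 2953 in KO and 2482, 2160 and 1880 in WT mice (log2 fold change 0.64, SE 0.27, edgeR adjusted p 0.738), overlapping through KO replicate 2. The makeup of the T cells moved with it: precursor-exhausted CD8+ cells were 23.5% ± 13.9 of all cells in KO and 5.20% ± 5.48 in WT mice, and exhausted CD8+ cells 7.17% ± 4.69 and 1.37% ± 1.41. Within the 9 types Ccl5 lay between -0.66 in proliferating CD4+ T cells or Tregs and 0.68 in precursor-exhausted CD8+ T cells, above 0 in 5 and below 0 in 4. Ccl4 and Ccl3 in T cells had log2 fold changes of 0.75 (SE 0.51) and 0.67 (SE 0.62); without KO replicate 1, Ccl3 had -0.08. In precursor-exhausted CD8+ T cells Ccl4 was 1318, 1331, 1216 and 881 in KO and 206, 860 and 820 in WT mice, and Ccl3 did not overlap either, as for 3.95% of genes tested (edgeR adjusted p 1.000 for both). Those cells were fewest in WT replicate 1, with 21.
Ccl12 had small counts in cells that do not make it in quantity: T cells had 17.5, 5.84, 1.88 and 13.2 in KO and 39.6, 21.0 and 17.6 in WT mice. The KO values were below the WT values, as for 4.23% of genes tested, and they followed the level of Ccl12 in the whole sort, which was lowest in KO replicates 2 and 3 and highest in WT replicate 1. Ccl12 also did not overlap in cells named cDC2 (4.28 to 8.01 in KO and 10.7 to 21.9 in WT mice; 2.92% of genes tested), in Th1 cells (2.86 to 17.5 and 20.1 to 21.1; 5.98%) and in precursor-exhausted CD8+ T cells (1.13 to 9.75 and 14.3 to 42.3; 2.85%). B cells had 0 to 6.24 of Ccl12 in KO and 0 to 50.4 in WT mice. The part of free RNA in these values was not tested.
Ccl2 in tumour or stromal cells was 29.0 and 42.1 in KO replicates 2 and 4 and 103, 104 and 43.7 in the WT mice, without overlap, as for 13.2% of genes tested (log2 fold change -1.21, SE 0.43, edgeR adjusted p 0.517). Ccl5 and Ccl3 were without overlap in 3 other types. Ccl5 in B cells was 58.9 to 82.1 in KO and 24.2 to 55.9 in WT mice (3.12% of genes tested). Ccl5 in proliferating CD4+ T cells or Tregs was 151 to 328 in KO and 350 to 361 in WT mice (5.58%), and Ccl3 in low-quality or activated microglia was 589 to 625 in 2 KO and 243 to 409 in 3 WT mice (13%).

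Over all sorted cells, which joins the number of cells of each type with the level in them, no member was called in edgeR either. Ccl12 was 150, 26.8, 20.6 and 82.2 in KO and 455, 228 and 215 in WT mice (log2 fold change -2.08, SE 0.71, edgeR adjusted p 0.191; -2.78 without KO replicate 1). Ccl7 was 80.4, 24.4, 8.39 and 51.2 in KO and 171, 92.8 and 136 in WT mice (-1.68, SE 0.67), and Ccr1 69.5, 65.9, 29.6 and 41.9 against 147, 70.7 and 99.3 (-1.03, SE 0.33). Ccl5 went the other way, with 1456, 1251, 3889 and 1807 in KO and 856, 1163 and 947 in WT mice (1.10, SE 0.40; 0.60 without KO replicate 3). These are 3 members with every KO value under every WT value, where 8.88% of 16997 genes did the same, and 1 above, where 10.9% did. Ccl2 was lower in the KO mean as well (-1.46, SE 0.58) with 1 KO mouse, replicate 1, inside the WT range. Ccl4, Ccr2 and Ccl3 had log2 fold changes of 0.31, -0.27 and 0.04. In edgeR 0% of all genes were called, 5 members had an unadjusted p under 0.05, and DESeq2 called 1, Ccr1, with an adjusted p of 0.0363, among 1331 genes (7.83%).

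A further calculation, chosen after the source shares were seen, gave the mean level that each mouse would have if its classes held the average UMI shares of the 7 mice. It set no minimum number of cells per class. The ratio of KO to WT means went from 0.23 to 0.43 for Ccl12, from 0.31 to 0.57 for Ccl7 and from 0.36 to 0.67 for Ccl2. For Ccr1 it went from 0.49 to 0.85, for Ccl8 from 0.51 to 0.86 and for Ccr2 from 0.83 to 1.01. The Ccl8 ratios rested on WT replicate 2, without which they were 1.57 and 3.33, and the observed Ccl12 ratio was 0.14 without KO replicate 1. For Ccl5 it went from 2.12 to 1.26, and Ccl4 (1.23 to 1.17) and Ccl3 (1.02 to 1.11) moved least. With shares held equal, Ccl12 was 138, 42.2, 45 and 143 in KO and 253, 220 and 164 in WT mice, and Ccl7 was 76.4, 34.5, 17.9 and 89.2 against 93.6, 90.2 and 103. Both were without overlap, as were 4.54% of 16997 genes in the same calculation. Ccl5 then overlapped, with 1502, 1188, 2401 and 1573 in KO and 1474, 1478 and 1025 in WT mice. These ratios have no test.

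Of 25 other CC chemokine and receptor genes listed, 22 were in the matrix, and in 58 tests over the 9 classes edgeR called 0 of them (DESeq2 called 1, Ccl9 in mo-DCs). In T cells, 2 receptors had no overlap between genotypes: Ccr4 (log2 fold change -1.73, SE 0.51) and Ccr6 (-1.44, SE 0.45; -2.08 without KO replicate 4), both lower in KO mice, as were 4.23% of genes tested there, with an edgeR adjusted p of 0.721. Within the CD4+ types fitted singly the values were nearer 0, -0.54 to -0.23 for Ccr4 and -1.10 to -0.21 for Ccr6, and the makeup of the T cells differed between genotypes as given above. These single fits had 4 KO and 2 WT mice. They lacked WT replicate 1, which the T cell fit held, so the mice compared are not the same.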

How the data were processed

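Droplet 5-prime single-cell libraries were made for 7 mice, 4 KO and 3 WT. Per the submitters' processing notes, FastQC 0.11.5, STAR 2.7.10a and STARsolo were used with build mm10; the gene annotation, cell filters, doublet treatment and how cell types were named are not given in the sources used here. The deposited matrix holds expected counts, UMIs per gene and cell that are not scaled; 7.51% of its non-zero values are not whole. A second deposited table lists, per cell, counts of genes detected together with percent of UMIs from mitochondrial and from ribosomal genes, library and cell type name.

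The members and lists were chosen with earlier results of these data known. UMIs were summed per mouse and class or type, rounded to whole numbers and kept where a mouse had at least 20 cells. Source shares and the levels with class shares held equal had no such minimum. The design had assumed whole counts, and rounding was adopted when the values were seen. Sums were fitted in edgeR 4.0.16 (TMM, filterByExpr, robust quasi-likelihood, genotype term), with Benjamini-Hochberg adjustment over all genes of a fit and calls at 0.05. SE is the log2 fold change divided by the square root of F. The microglia comparison had a term per mouse and a class-by-genotype term. Alternatives used DESeq2 1.42.0, limma 3.58.1, no filter, left-out mice, other cell minimums and a replicate block. Cells were thinned without replacement, and source shares were tested over the 35 divisions of 7 mice into 4 and 3. Named genes are the 9 members; fits not described are given as counts. Of the other CC genes they are those called, those without overlap between genotypes in microglia, monocyte-derived cells or T cells, except 1 gene that is not reported here; Ccl9, called under alternatives only, was named after its values were seen. The 3 most alike genes of each member are named too. The edgeR step was tested on simulated counts. Nothing in the labels says more of the replicates than that each is 1 mouse.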

Additional observations from a re-analysis of the deposited data

Results flagged for a closer look

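Among the 4 KO mice, 189 combinations of gene and cell group were checked for 1 mouse far from the others, and 8 stood out. Chance flags about 1 in 20 such groups. A flag also needed at least 20 UMIs over the KO mice, and the 189 include combinations with fewer. The 8 therefore cannot be set against that chance rate. All values are CPM. KO replicate 1 was high for Ccl12 in Tregs (123, the other 3 mice between 5.79 and 17.2) and for Ccl3 in proliferating CD4+ T cells and Tregs (1485, the others between 83.8 and 181). KO replicate 3 was high in NK cells for Ccl4 (532, the others between 48.5 and 117) and for Ccl5 (4164, the others between 1641 and 1771), and low for Ccl2 in T cells (2.25, the others between 6.39 and 7.10). KO replicate 4 was high for Ccl8 in mo-DCs (38.9, the others between 1.21 and 4.69) and low for Ccr2 in monocytes (274, the others between 439 and 467). KO replicate 2 was low for Ccl5 in mo-DCs (144, the others between 291 and 312).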

How the results depend on the processing

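Of 53 log2 changes examined, 39 kept their direction under every alternative run, and of 632 alternative values 6 passed the threshold. Counts of members called went from 0 to 1 in tumour or stromal cells without a filter (Ccl2, adjusted p 1.21e-04, where 0.808% of all genes were called) and in all sorted cells with DESeq2. Leaving out 1 mouse gave 0 to 1 in proliferating macrophages (Ccl7) and for the difference between microglia and monocyte-derived cells (Ccr1), both 1 without KO replicate 4. Ccl9 in mo-DCs also passed by DESeq2 and without a filter. Over all genes of all sorted cells, edgeR called 0 and DESeq2 1331.

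Log2 changes that turned with equal cells per mouse in microglia were Ccl12 0.41, Ccl2 0.70, Ccl3 -0.16, Ccl4 -0.083 and Ccl5 0.11. Without low-quality or activated microglia, Ccl12 gave 0.14 and Ccl5 0.062. That fit also lowered the minimum to 10 cells, which left KO replicates 1 and 4 with 10 and 15 cells. With only the minimum lowered to 10 cells, Ccl3 gave -0.026 and Ccl4 -0.055. With the replicate block, Ccl8 in monocyte-derived cells gave 0.54, and in microglia Ccl2 gave 0.29 and Ccl7 0.022; it called 0 members wherever it could be fitted. Over all sorted cells, the deviations of same-numbered mice had r from -0.29 to 0.26. Only for replicate 1 was this above the highest r with a different number (0.26 against 0.16). So few pairs cannot decide whether same-numbered samples shared more than a number. Leaving out 1 mouse gave, in monocyte-derived cells, -0.80 to 1.70 for Ccl8, -0.31 to 0.020 for Ccl3 and -0.41 to 0.29 for Ccl5; in microglia -0.042 to 0.51 for Ccl3; in T cells -0.081 to 0.95 for Ccl3; and in all sorted cells -1.51 to 0.68 for Ccl8, -0.46 to 0.023 for Ccr2, -0.36 to 0.19 for Ccl3 and -0.0049 to 0.46 for Ccl4. With equal UMIs per class, and no minimum number of cells, the KO minus WT share in percentage points was 5.04 for Ccl7 and 14.3 for Ccl8. It was 0.119 for Ccl12, 2.72 for Ccr2 and 0.226 for Ccl3. The cause was not tested. The block in tumour or stromal cells, and genotype fits of cells named Microglia and of gamma-delta T cells, could not be run with the mice at hand. Few microglia limit the precision of the values in them.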
